A study of Mus musculus with 2 samples.

Results

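Bglap-high osteoblasts of the mouse femur were described across genes, with and without calcitriol. Cells were selected on their own counts. A barcode, the tag that stands for 1 cell, was kept when it held at least 200 genes, when *Bglap* made up at least 0.5% of its unique molecular identifiers (UMIs, the counted RNA molecules), and when it held a UMI of *Ibsp* or *Runx2*. Barcodes with *Col2a1* at 1% or more of UMIs, or with haemoglobin transcripts (*Hba-a1*, *Hba-a2*, *Hbb-bs* and *Hbb-bt*) at 10% or more, were left out. These limits gave 151 of the 10638 barcodes deposited, and 8553 of all barcodes held at least 200 genes. The untreated library gave 91 of 4633 such barcodes, or 1.96% (exact 95% interval 1.58% to 2.41%). The calcitriol library gave 60 of 3920, or 1.53% (1.17% to 1.97%). The libraries held very different numbers of erythroid barcodes, 2394 untreated and 462 calcitriol. Of barcodes with haemoglobin under 10%, the osteoblasts were 91 of 2239 (4.06%, 3.28% to 4.97%) in the untreated and 60 of 3458 (1.74%, 1.33% to 2.23%) in the calcitriol library, so the order of the shares is the same but their distance depends on the denominator.

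Both groups were male C57BL/6J mice aged 7 weeks. One group was untreated. The other received 2.5 µg/kg calcitriol into a vein once a day, 3 times, and the bones were collected 24 h after the final dose. Femurs of 6 mice per group were pooled, their ends were cut off, the marrow was flushed out, the bone was digested with collagenase and EGTA, and CD45-positive leukocytes were removed before 1 droplet library was made per group. The untreated mice are not described as having received vehicle injections, so injection and hormone cannot be told apart. With 1 library per group there was no replicate and no test of any difference, and all intervals cover counting error only.

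Osteoblasts lay down the organic matrix of bone, which is mostly type I collagen, and then drive its mineralization. Osteocalcin, the *Bglap* product, is a late, bone-specific marker, *Ibsp* encodes bone sialoprotein, and *Runx2* encodes the transcription factor that sets the lineage. Some osteoblasts become buried in the matrix as osteocytes, which express *Dmp1*, *Mepe* and *Phex*. Calcitriol is the hormonally active form of vitamin D. It binds the vitamin D receptor, which pairs with a retinoid X receptor on DNA, and osteoblast lineage cells are known targets of it.

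The selected barcodes were deep. The median was 17405 UMIs and 3405 genes per barcode in the untreated library, and 16169.5 UMIs and 3035 genes in the calcitriol library. In all, 1910302 and 1326223 UMIs were summed, and the largest single barcode gave 5.78% and 7.22% of them. *Bglap* made up 0.501% of UMIs in the lowest untreated barcode, 1.64% in the median one and 9.62% in the highest. In the calcitriol library these values were 0.501%, 1.09% and 11.8%. Just outside the limit, the highest barcodes that passed all other limits were at 0.471% and 0.493%. From 0.4% to under 0.5% there were 9 untreated and 16 calcitriol barcodes. *Ibsp* was present in 86 of 91 and 54 of 60 barcodes, *Runx2* in 72 and 46, and both in 67 and 40. These values follow from the selection.

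The label of mature osteoblasts was set beside other genes. Across both libraries, the genes with the largest ratio to all other barcodes were led by *Bglap2*, *Ifitm5* and *Bglap3*. *Bglap2* stood at 19586 counts per 1000000 UMIs (CPM) in untreated osteoblasts, against 242 CPM in all other untreated barcodes. *Bglap2* and *Bglap3* are near-identical copies of *Bglap* and may share its reads, so they are not independent of the selection. *Ifitm5*, a membrane protein of mineralizing osteoblasts, stood at 484 CPM against 4.87 CPM. The next genes by this ratio were *Cadm1*, *Bmp3*, *Ptprz1*, *Slc36a2*, *Lipc*, *Prss35*, *Kazald1*, *Col13a1* and *Spp1*. Of all other barcodes, 2394 of 4542 untreated and 462 of 3860 calcitriol ones were erythroid. These ratios are therefore not to other skeletal cells alone. Some cells carried signs of neighbouring stages: 16 untreated and 11 calcitriol barcodes had UMIs of at least 2 of *Dmp1*, *Mepe* and *Phex*, and 19 and 6 had *Postn*, a periosteal matrix gene, at 0.3% or more of UMIs.

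Markers of blood and endothelial cells were low or absent, and those of cartilage and periosteum were not. Of 12 blood leukocyte markers, 6 were at 0, *Ptprc* among them, and the whole list summed to 6.81 CPM in untreated and 12.8 CPM in calcitriol cells, with *Fcer1g* the most abundant. Of 8 endothelial markers, *Cdh5*, *Emcn*, *Kdr*, *Tie1* and *Cldn5* were at 0, and the list summed to 13.6 and 33.2 CPM, mostly *Eng*. Chondrocyte markers were present, at 2778 CPM in untreated and 4801 CPM in calcitriol cells over 17 genes, with *Comp* the most abundant and *Epyc* at 0. The 5 periosteal precursor markers summed to 2272 and 1341 CPM, mostly *Postn*, with *Mfap4* at 0. The osteoclast list summed to 448 and 363 CPM, mostly *Ctsk*, with *Mmp9*, *Dcstamp*, *Oscar* and *Calcr* at 0. A doublet score marked 0 untreated and 2 calcitriol barcodes of the selection. The 2 libraries shared 8 barcode sequences, and 1 of the untreated osteoblasts was among them.

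Free RNA was judged from endothelial barcodes, which had UMIs of at least 2 of *Cdh5*, *Pecam1*, *Emcn* and *Kdr*. *Bglap* was at 22.1 CPM there in the untreated library and 10.1 CPM in the calcitriol library. *Spp1* differed. It was at 187 CPM in untreated and 2555 CPM in calcitriol endothelial barcodes. The median depth of these barcodes was 7985.5 and 8463 UMIs. Haemoglobin transcripts took 41.2% of all UMIs in the untreated library and 10.6% in the calcitriol library, but a median of only 0.102% and 0.0267% in the selected osteoblasts.

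The most abundant transcripts were those of bone matrix. In untreated cells *Col1a1* held 5.07% of UMIs, *Sparc* (osteonectin) 4.27%, *Col1a2* 3.45%, *Bglap* 3.04%, *Spp1* (osteopontin) 2.18% and *Bglap2* 1.96%. In calcitriol cells *Spp1* came first, at 9.29%, ahead of *Col1a1* at 3.62% and *Sparc* at 2.99%. The other transcripts among the 10 most abundant over both libraries were *Gm42418*, *Malat1*, *Cst3* and *Ibsp*. *Cst3*, which encodes the protease inhibitor cystatin C, was at 8304 CPM in untreated and 19858 CPM in calcitriol cells. The kit counts 3′ ends of molecules, so these levels were not divided by transcript length.

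The calcitriol library was then compared with the untreated one over 5498 genes that had at least 50 UMIs and were found in at least 10% of the selected barcodes. Of these, 155 (2.82%) were at least 2-fold higher in the calcitriol cells and 261 (4.75%) at least 2-fold lower. The median log2 ratio of all genes tested was −0.17, and all ratios below are on the log2 scale of CPM, calcitriol over untreated, without removing that shift. With ratios centred on this median, 208 genes were higher and 157 lower, so the share of higher genes among those past 2-fold went from 37.3% to 57.0%. The most extreme ratios among the 1907 genes with at least 200 UMIs are named in the plot of ratio against level.

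**Figure D1:**
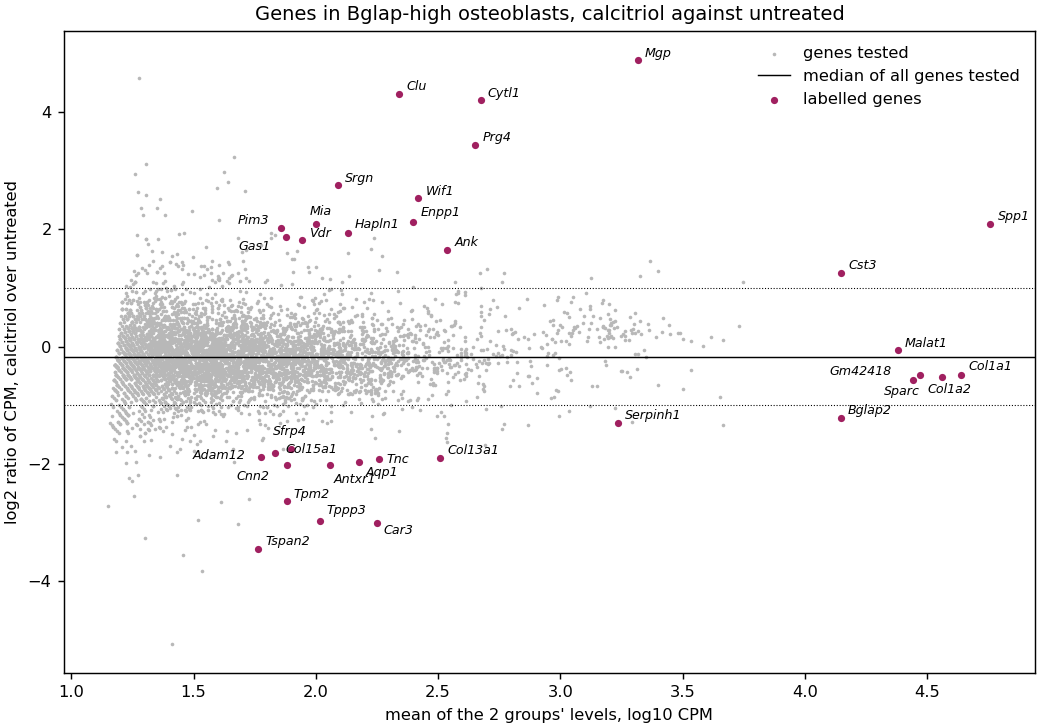
Each point is 1 of the 5498 genes tested in Bglap-high osteoblasts, with the mean of the 2 groups' levels on the x axis (log10 CPM) and the log2 ratio of calcitriol over untreated on the y axis. Dotted lines mark 2-fold, the solid line marks the median of −0.17, and of the labelled genes at the right, the most abundant ones, only *Spp1* and *Cst3* lie above the upper dotted line.

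Genes of vitamin D action were examined first. Of the 17 genes listed as the vitamin D receptor and its targets, 7 passed the filter on low counts, and 3 of these were at least 2-fold higher in calcitriol cells, beside 2.82% of all genes tested, with a median log2 ratio of 0.54. *Vdr*, *Spp1* and *Enpp1* were the 3. This list, like the other lists of genes and markers, was chosen with earlier results of these data known. Its count beside the share of all genes is therefore no independent evidence. *Rxrb*, *Tnfsf11* (RANKL, the osteoclast-inducing cytokine), *Lrp5* and *Thbd* lay between −0.60 and 0.54. *Cyp24a1*, the hydroxylase that degrades calcitriol and is a classic target of the receptor, had 0 UMIs in untreated and 1 UMI in calcitriol cells.

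*Spp1* encodes osteopontin, an acidic phosphoprotein that binds mineral and cells. It was detected in 77 of 91 untreated and 58 of 60 calcitriol barcodes. The median barcode held 6912 CPM in the untreated library and 84545 CPM in the calcitriol library, and the highest held 178474 and 333666 CPM. The median calcitriol cell lay above the upper quartile of the untreated cells, which was 28302 CPM, although the ranges of the groups overlapped. Summed over barcodes, *Spp1* went from 21755 to 92924 CPM, a log2 ratio of 2.09 (2.08 to 2.11). The level in calcitriol endothelial barcodes, 2555 CPM, was far below that in the osteoblasts of the same library. The share of endothelial barcodes with an *Spp1* UMI was 18.0% and 45.8%.

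*Vdr* itself, the receptor, was found in 29 of 91 untreated and 31 of 60 calcitriol barcodes. Its summed level was 38.7 CPM (30.4 to 48.6) in untreated and 136 CPM (117 to 158) in calcitriol cells, with a log2 ratio of 1.82 (1.42 to 2.23). It was a low transcript in both groups. In endothelial barcodes, *Vdr* was found in 2.2% and 3.3%.

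*Enpp1* and *Ank* act together outside the cell. *Enpp1* encodes the enzyme that makes pyrophosphate, an inhibitor of mineral growth, and *Ank* encodes a membrane protein through which pyrophosphate reaches the outside. *Enpp1* was found in 46 untreated (50.5%) and 50 calcitriol (83.3%) barcodes, and its level was 93.2 against 408 CPM, a log2 ratio of 2.13 (1.88 to 2.38). *Ank* was found in 53 untreated (58.2%) and 46 calcitriol (76.7%) barcodes, and its level was 166 against 523 CPM, a log2 ratio of 1.65 (1.46 to 1.85). Endothelial barcodes with an *Enpp1* UMI were 4.8% and 5.1%, and those with an *Ank* UMI 18.0% and 21.8%.

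The 4 genes were also counted barcode by barcode. All of *Vdr*, *Spp1*, *Enpp1* and *Ank* were found in 13 of 91 untreated and 22 of 60 calcitriol barcodes, and none of them in 5 and 0. To set depth equal, each barcode was thinned to 2000 UMIs, which left 87 and 58 barcodes. Then *Spp1* was found in 74.7% and 96.6%, *Enpp1* in 17.2% and 44.8%, *Ank* in 21.8% and 43.1%, and *Vdr* in 5.75% and 17.2%. At this depth *Vdr* was near the limit of detection. After thinning, 3 of the 4 genes were found together in 4 untreated and 16 calcitriol barcodes, and all 4 in 0 and 2.

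**Figure D2:**
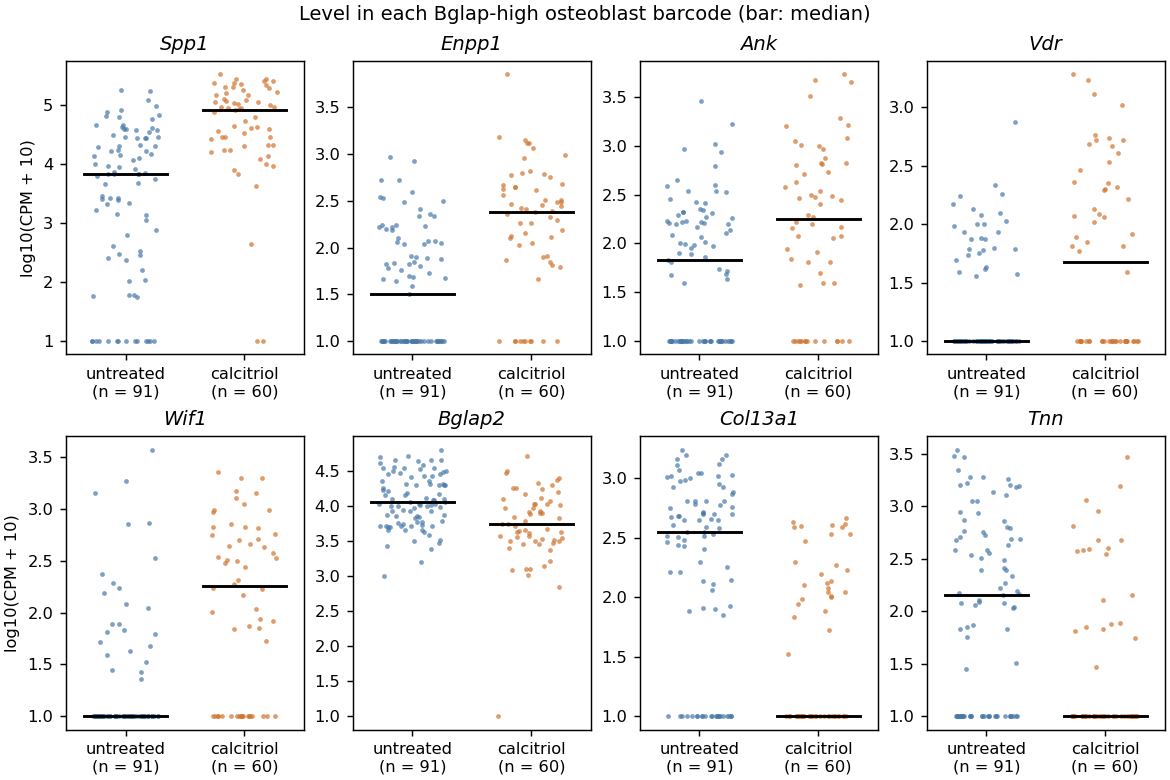
Each point is 1 barcode of the 91 untreated and 60 calcitriol Bglap-high osteoblasts, the y axis is log10 of CPM plus 10, and the bar is the median over barcodes. *Spp1*, *Enpp1*, *Ank*, *Vdr* and *Wif1* have a higher median in the calcitriol library, *Bglap2*, *Col13a1* and *Tnn* a lower one, and the groups overlap in each gene.

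*Fgf23*, the phosphate-lowering hormone that osteocytes and osteoblasts release, was at 0 UMIs in all 91 untreated barcodes, which allows a share of up to 3.30% of barcodes with a UMI (3 of 91) and does not limit the share of cells that express it. It had 46 UMIs in 9 of the 60 calcitriol barcodes, which held 17, 11, 7, 4, 2, 2, 1, 1 and 1 of them. A UMI of it was thus in a minority of the barcodes, and 3 of them held 76.1% of its UMIs. Against a floor of 3 counts over the untreated cells, the log2 ratio was at least 4.47. *Vdr* was found in 8 of the 9 barcodes, and at least 2 osteocyte genes in 3. Outside the osteoblasts of the calcitriol library, it had 495 UMIs in 20 barcodes, of which 471 UMIs were in 10 of the 90 barcodes with osteocyte genes. One of these 10 held 158 UMIs and also met the endothelial limits. Of the rest, 12 UMIs were in 2 barcodes high in *Postn*.

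A set of 14 vitamin D-related genes named in the study was examined in the same way, without *Vdr*, which the study also names and which is described above. That set was reported from these libraries, so its direction here is no independent evidence. Of 9 genes tested, 1 was at least 2-fold higher, beside 2.82% of all genes tested, and 0 were lower. The median log2 ratio was −0.04, over a set that the study did not put together for 1 direction. The gene was *Sulf2*, a heparan sulfatase, with 8 UMIs in untreated and 48 in calcitriol cells and a log2 ratio of 3.11 (2.02 to 4.40). *Igfbp7* was at 0.81, *Fn1* at 0.50, *Timp1* at −0.66 and *Dnmt3a* at −0.70.

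The osteocalcin genes form a cluster of near-identical copies on chromosome 3, and 3′ reads may be shared or lost between them, so their separate levels are uncertain. *Bglap*, on which the cells were selected, was at 30429 CPM in untreated and 16790 CPM in calcitriol cells. *Bglap2*, which the limits did not use directly but which may share reads with *Bglap*, was at 19586 CPM (19389 to 19786) and 8453 CPM (8297 to 8611). Its median over barcodes was 11369 CPM in untreated and 5496 CPM in calcitriol cells, its groups overlapped, and its log2 ratio was −1.21 (−1.24 to −1.18). *Bglap3* was at 416 and 342 CPM, a log2 ratio of −0.28. *Bglap2* was within 2-fold in 3 of 16 other ways of selecting or weighting the cells. Of these 16, holding haemoglobin under 5% kept the same cells and so repeated each ratio, here and in the counts below.

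The 250 bases before the start of *Spp1* and *Bglap* are shown because *Spp1* was the most abundant transcript of the calcitriol cells and *Bglap* is the gene on which the cells were selected. They are RefSeq sequences of GRCm38.p6, 5′ to 3′ on the strand of the gene, with matches to ACCACA, the core of the RUNX binding motif, and to TATAAA, the letters of a TATA box, in capitals. The *Spp1* window is chr5:104434861-104435110 on the plus strand, before the more upstream of 2 annotated starts, and the *Bglap* window is chr3:88384467-88384716 on the minus strand.
Spp1: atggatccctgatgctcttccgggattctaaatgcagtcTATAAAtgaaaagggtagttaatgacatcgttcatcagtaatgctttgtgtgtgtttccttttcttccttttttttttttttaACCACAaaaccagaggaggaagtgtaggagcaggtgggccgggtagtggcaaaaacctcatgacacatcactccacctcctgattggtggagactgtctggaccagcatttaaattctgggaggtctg
Bglap: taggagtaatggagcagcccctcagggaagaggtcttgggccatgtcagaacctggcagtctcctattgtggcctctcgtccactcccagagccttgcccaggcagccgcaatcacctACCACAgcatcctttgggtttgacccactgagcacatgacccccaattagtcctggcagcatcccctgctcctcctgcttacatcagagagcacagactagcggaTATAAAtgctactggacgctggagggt
ACCACA was searched on both strands and was in 14.05% of all 32851 windows of this length. It ended 123 bases before the start in *Spp1* and 127 bases before the start in *Bglap*. In *Spp1* it was part of the longer AACCACA, which 4.40% of windows held. TATAAA was in 12.4% of windows. It stood at −27 to −22 from the start in *Bglap*, and at −211 to −206 in *Spp1*, farther from the start than TATA boxes usually lie. *Enpp1* held ACCACA once, and *Ank*, *Vdr*, *Wif1* and *Fgf23* did not hold it. A direct repeat of vitamin D response half-sites (each of them AGGTCA, its variant AGTTCA, the form GGGTCA or the form GGTTCA, with 3 bases between) was in 0.0396% of windows and in none of these 7 genes, which says only that these letters are not in these windows.

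Collagen chains and genes of collagen processing had medians below that of all genes. Of 16 collagen chains, all tested, 0 were at least 2-fold higher and 7 lower, beside 2.82% and 4.75% of all genes tested. Their median log2 ratio was −0.73 against −0.17 for all genes. The list keeps *Col11a1*, also a cartilage chain, but leaves out *Col9a2* (2.63) and *Col9a3* (1.83), described below with the chondrocyte markers. These counts depend on that choice. The type I chains *Col1a1* and *Col1a2* were both at −0.48. *Col13a1*, a transmembrane collagen, had the lowest ratio: it was found in 69 of 91 untreated (75.8%) and 28 of 60 calcitriol (46.7%) barcodes, at 509 and 137 CPM, with a log2 ratio of −1.89 (−2.13 to −1.66). Its median over barcodes was 346 CPM in untreated and 0 CPM in calcitriol cells. Endothelial barcodes with a *Col13a1* UMI were 6.6% and 6.5%. *Col6a2* was at −1.56, *Col12a1* at −1.11, *Col11a1* at −1.10, *Col5a3* at −1.08, *Col6a1* at −1.05 and *Col5a1* at −1.02. Of these, *Col6a2* stayed past 2-fold in all 16 other ways of selecting or weighting the cells, *Col12a1* and *Col6a1* in 13, *Col11a1* in 12, *Col5a3* in 11 of 15 and *Col5a1* in 10 of 16. With *Bglap* from 0.5% to under 2%, *Col11a1* came to −0.28, and with *Bglap* at 1% or more *Col5a3* came to 0.25. *Col16a1* and *Col22a1* were at 0.10 and 0.37.

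Of 23 genes of collagen folding, secretion and crosslinking tested, 1 was at least 2-fold higher and 3 lower, beside 2.82% and 4.75% of all genes tested, with a median of −0.45. *Serpinh1*, the collagen chaperone HSP47, was found in nearly all cells of both groups, at a median of 2144 CPM in untreated and 547 CPM in calcitriol barcodes, and its log2 ratio was −1.30 (−1.38 to −1.21). The ratio of *Serpinh1* was −1.05 in Postn-high barcodes, −1.13 in osteocyte-gene barcodes and −1.07 in endothelial barcodes, so a lower level was seen in all 4 populations. The crosslinking enzyme *Loxl1* was at −1.42 and the prolyl hydroxylase complex gene *P3h4* at −1.02. *Loxl1* stayed past 2-fold in 14 of 16 other ways of selecting or weighting the cells and came to −0.22 after thinning, and *P3h4* stayed past it in 11. *Loxl4* was at 1.93, but at only 12 and 46 CPM, and its ratio had the opposite sign after thinning (−0.15). Genes of the unfolded protein response had a median of −0.64, with 0 of 14 higher and 1 lower, *Creld2*, at −1.32, near the 4.75% of all genes. *Hspa5*, the main chaperone of the endoplasmic reticulum, was at 0.10.

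Among 20 non-collagen matrix genes tested, 3 were at least 2-fold higher (*Spp1*, *Mgp* and *Thbs1*) and 5 lower (*Tnc*, *Tnn*, *Cthrc1*, *Bglap2* and *Vcan*), beside 2.82% and 4.75% of all genes tested, with a median of −0.21. *Thbs1* stayed past 2-fold in 12 of 16 other ways of selecting or weighting the cells, and *Vcan* in 13 of 15. *Tnn*, tenascin W, was found in 60 of 91 untreated and 21 of 60 calcitriol barcodes, at 521 and 169 CPM, and its log2 ratio was −1.63 (−1.84 to −1.42). *Tnc*, tenascin C, was found in 62 and 19 barcodes, at 286 and 76.2 CPM, with a log2 ratio of −1.91 (−2.23 to −1.60), but in cells with *Bglap* at 2% or more of UMIs it was at 82.6 and 91.8 CPM, a log2 ratio of 0.15. Both tenascins are glycoproteins of periosteum and growing bone, and both groups included barcodes without a UMI of either. After thinning, *Tnn* was found in 40.2% and 15.5% of barcodes and *Tnc* in 31.03% and 15.5%. The level of *Postn* moved with them, at 1184 CPM in untreated and 646 CPM in calcitriol cells. Without the barcodes with *Postn* at 0.3% or more, *Tnn* was at −1.13 and *Tnc* at −2.19. *Dcn*, *Thbs2*, *Omd* and *Bgn* lay between −0.17 and 0.01.

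Of 15 genes of mineralization tested, 2 were at least 2-fold higher, *Enpp1* and *Ank*, and 2 at least 2-fold lower, the annexins *Anxa2* at −1.32 and *Anxa6* at −1.02, beside 2.82% and 4.75% of all genes tested, and the median was −0.05. *Anxa2* stayed past 2-fold in 16 of 16 other ways of selecting or weighting the cells, and *Anxa6* in 12. With *Bglap* from 0.5% to under 2%, *Anxa6* came to −0.63. *Alpl*, the phosphatase that removes pyrophosphate, was at 841 and 670 CPM, a log2 ratio of −0.33. *Smpd3* was at −0.62, *Phex* at 0.28, *Ifitm5* at −0.05, *Slc36a2* at 0.26 and the phosphate transporter *Slc20a1* at 0.49. *Phospho1* did not pass the filter on low counts. Vitamin K-dependent Gla proteins and their enzymes had a median of −0.17, with *Mgp* higher, *Bglap2* lower, and *Ggcx*, the carboxylase itself, at −0.44.

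Of 13 osteoblast transcription factors tested, 0 were at least 2-fold higher and 0 lower, beside 7.57% of all genes tested in either direction, and the median was −0.09. *Sp7* (osterix) was at 47 and 57 CPM, *Atf4* at 332 and 321 CPM and *Mef2c* at 273 and 373 CPM. Genes of parathyroid hormone signalling also had 0 of 11 past 2-fold, with *Pth1r*, the receptor, at −0.46.

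Of 11 osteocyte genes tested, 1 was at least 2-fold higher (*Ptprz1*, at 1.11) and 2 lower (*Npnt* at −1.56 and *Mmp14* at −1.32), beside 2.82% and 4.75% of all genes tested, with a median of −0.08. *Dmp1* was found in 35 of 91 untreated and 32 of 60 calcitriol barcodes, at 1023 and 1275 CPM, with a log2 ratio of 0.32 (0.22 to 0.41), which was −0.33 in cells with *Bglap* from 0.5% to under 2%. *Mepe* had 5 and 10 UMIs, and *Sost*, the Wnt inhibitor of mature osteocytes, had 0 and 1. *Ptprz1* was past 2-fold in 9 of 16 other ways of selecting or weighting the cells.

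Of 9 Wnt pathway genes tested, 2 were at least 2-fold higher and 2 lower, beside 2.82% and 4.75% of all genes tested, with a median of −0.49. *Wif1*, which binds Wnt ligands, was found in 25 of 91 untreated (27.5%) and 41 of 60 calcitriol (68.3%) barcodes. Its level was 77.5 CPM in untreated and 448 CPM in calcitriol cells, with a log2 ratio of 2.53 (2.27 to 2.80), and in the untreated library 3 barcodes held 64.2% of its UMIs. After thinning it was found in 11.5% and 39.7%. Endothelial barcodes with a *Wif1* UMI were 2.6% and 4.4%. *Sfrp4* was at 121 and 36.2 CPM, a log2 ratio of −1.75, and *Dkk3* at −1.44. *Frzb* was at 1.47, but at −0.15 where *Col2a1* was held under 0.1% of UMIs.

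Osteoblasts steer osteoclasts through RANKL and its decoy receptor osteoprotegerin. *Tnfrsf11b*, which encodes osteoprotegerin, was the 1 gene of 7 tested osteoclast regulators that was past 2-fold, beside 7.57% of all genes tested in either direction, and the list median was −0.11. It was found in 50 of 91 untreated and 41 of 60 calcitriol barcodes, at 344 and 826 CPM, with a log2 ratio of 1.26 (1.12 to 1.40). It stayed past 2-fold in 13 of 16 other ways of selecting or weighting the cells, and came to 0.86 with *Bglap* from 0.5% to under 2%. *Tnfsf11* (RANKL) was found in only 16 and 14 barcodes, at 23.0 and 30.9 CPM, with a log2 ratio of 0.42 (−0.23 to 1.07). The interval of the RANKL ratio includes no difference, and it rests on the UMIs of those 16 and 14 barcodes. *Csf1* was at −0.19. Endothelial barcodes with a *Tnfrsf11b* UMI were 4.8% and 5.1%.

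In the insulin-like growth factor list, 2 of 7 genes tested were at least 2-fold higher and 0 lower, beside 2.82% and 4.75% of all genes tested, and the median was 0.36. *Igf1* did not pass the filter, with 66 UMIs in 7 untreated and 6 UMIs in 4 calcitriol barcodes, a log2 ratio of −2.93, and 89.4% of the untreated UMIs were in 3 barcodes. *Stc2*, stanniocalcin 2, an inhibitor of the protease that frees these growth factors, was found in 12 of 91 and 25 of 60 barcodes, at 10.99 and 76.9 CPM, with a log2 ratio of 2.81 (2.12 to 3.56). *Igf1r* was at 1.05. It stayed past 2-fold in 13 of 16 other ways of selecting or weighting the cells, and came to 0.78 with *Bglap* from 0.5% to under 2%. In the list of bone morphogenetic protein and TGF-beta genes, 1 of 14 was higher and 0 were lower, with a median of 0.24. These counts stand beside 2.82% and 4.75% of all genes tested, and the higher gene was the antagonist *Fst*, at 1.46. The call of *Fst* held in 13 of 15 other ways of selecting or weighting the cells. The antagonist *Grem1* did not pass the filter, at −3.20 with 95.8% of its untreated UMIs in 3 barcodes. *Bmp2* was at 313 and 402 CPM and *Bmp3* at 173 and 135 CPM. Of 11 matrix proteases and inhibitors, 0 were higher and 2 lower, *Mmp14* at −1.32 and *Mmp16* at −1.47, beside 4.75% of all genes lower, with a median of −0.54. *Mmp13*, a collagenase, was at 785 and 1073 CPM.

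**Figure D3:**
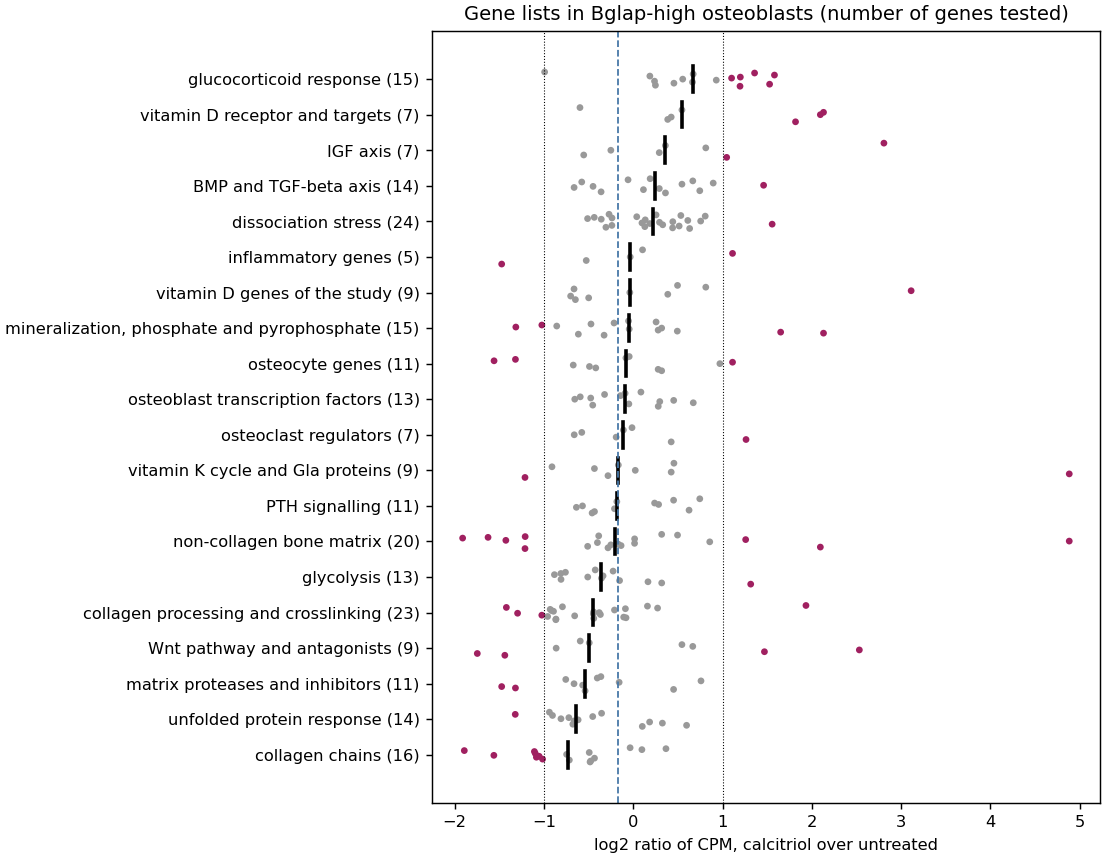
Each point is 1 tested gene of a list, the x axis is the log2 ratio of CPM, calcitriol over untreated, and the number of genes tested is given beside each list name. Black bars are list medians, the dashed line is the median of all genes tested (−0.17), dotted lines mark 2-fold and red points lie past it. The medians run from −0.73 for collagen chains to 0.67 for glucocorticoid response genes.

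Genes known to respond to glucocorticoids, stress or handling were examined too. Of 15 glucocorticoid-responsive genes tested, 6 were at least 2-fold higher, beside 2.82% of all genes tested, and 0 lower, and the median was 0.67. These were *Fkbp5*, *Zbtb16*, *Pdk4*, *Glul* and the metallothioneins *Mt1* and *Mt2*. Over the other ways of selecting or weighting the cells, *Pdk4* stayed past 2-fold in 16 of 16, *Mt2* and *Glul* in 14, *Zbtb16* in 13, *Fkbp5* in 13 of 15 and *Mt1* in 12 of 16. In cells with *Bglap* from 0.5% to under 2%, *Fkbp5* was at 0.90, *Zbtb16* at 0.84 and *Mt1* at 0.90. *Mt1* was found in 84 of 91 and 59 of 60 barcodes, at 3537 and 7586 CPM, with a log2 ratio of 1.10 (1.06 to 1.15). It was also higher in calcitriol endothelial barcodes, at 1.33, and in Postn-high ones, at 1.62. *Tsc22d3* and *Klf9* were at 0.25 and 0.24. Dissociation stress genes had 1 of 24 higher, *Egr2* at 1.56, which is near the 2.82% of all genes, and 0 lower, with a median of 0.22. The part of handling in the other ratios was not tested.

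Glycolysis genes had 1 of 13 higher (*Slc2a1*, a glucose transporter, at 1.31 but at 12 and 29 CPM), 0 lower and a median of −0.36. *Slc2a1* stayed past 2-fold in 13 of 16 other ways of selecting or weighting the cells and came to 0.60 without barcodes with 2 osteocyte genes. Of 5 inflammatory genes tested, 1 was higher (*Icam1*, at 1.11, but at −0.74 after thinning) and 1 lower (*Cxcl1*, at −1.47), and both lists stand beside 2.82% and 4.75% of all genes tested. Only *Pcna* and *Hmgb2* of the 20 cell cycle genes passed the filter on low counts, at 0.08 and 0.13.

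The 4 highest ratios of all genes with at least 200 UMIs rested on few cells. *Mgp*, which encodes matrix Gla protein, an inhibitor of calcification, had 260 UMIs in untreated and 5322 in calcitriol cells, a log2 ratio of 4.88 (4.70 to 5.07). Of the calcitriol UMIs, 92.2% were in 3 barcodes, and the medians over barcodes were 0 and 44.9 CPM. Endothelial barcodes held *Mgp* at 541 CPM without and 2101 CPM with calcitriol. For *Cytl1*, 93.9% of the calcitriol UMIs were in 3 barcodes, for *Clu* 87.5% and for *Prg4* 75.7%. *Prg4*, the joint lubricant lubricin, was at 820 CPM in calcitriol osteoblasts and at 3226 CPM in endothelial barcodes of the same library, against 75.4 and 567 CPM in the untreated library. The log2 ratio was 3.44 in the osteoblasts and 2.51 in endothelial barcodes. With the 11 barcodes left out in which *Prg4* and *Cytl1* together reached 0.1% of UMIs, 1 untreated and 10 calcitriol, *Mgp* was at 4.90, *Clu* at 2.94, *Cytl1* at 2.47 and *Prg4* at 1.31. Over 16 other ways of selecting or weighting the cells, *Mgp* ranged from 1.88 to 6.19. In cells with *Bglap* under 1% of UMIs, *Mgp* was at 2.03. *Srgn*, a proteoglycan core protein, was at 2.75 with 58.2% of its calcitriol UMIs in 3 barcodes.

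Chondrocyte markers moved with these genes, and their part in the ratios above was not tested beyond the values given here. Of 9 chondrocyte markers tested, 5 were at least 2-fold higher in calcitriol cells (*Prg4*, *Col9a2*, *Hapln1*, *Col9a3* and *Snorc*) and 0 lower, beside 2.82% and 4.75% of all genes tested, with a median of 1.28. *Col2a1*, on which cells were left out, was at 433 CPM in untreated and 446 CPM in calcitriol cells. *Snorc* was at 1.28, with 76.9% of its calcitriol UMIs in 3 barcodes, and at −0.53 without the *Prg4* and *Cytl1* barcodes. *Mia*, another cartilage gene, was at 2.09 with 75.9% of its calcitriol UMIs in 3 barcodes, and at −0.56 where *Col2a1* was held under 0.1%. *Spp1*, *Enpp1*, *Ank*, *Vdr* and *Wif1* were at least 2-fold higher in all 16 other ways of selecting or weighting the cells. The way without the *Prg4* and *Cytl1* barcodes was among them. Holding haemoglobin under 5% kept the same cells and centring on the median raised every ratio, so neither could lower these. *Pim3*, a kinase, was at 2.03 and *Gas1*, a cell surface protein of growth arrest, at 1.87.

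*Tpm2*, a tropomyosin, was found in 57 of 91 untreated and 19 of 60 calcitriol barcodes, at 131 and 21.1 CPM, with a log2 ratio of −2.63 (−3.25 to −2.07). *Cnn2*, calponin 2, was at −2.02, and *Acta2*, smooth muscle actin, was found in 25 and 4 barcodes, at −3.82. *Myh11* and *Rgs5*, which mark smooth muscle and pericytes, were at 0 in both groups, and the smooth muscle list summed to 258 and 165 CPM, mostly *Cspg4*. *Tspan2*, a tetraspanin, was at 107 and 9.80 CPM, a log2 ratio of −3.45 (−4.38 to −2.64). *Tppp3*, a tubulin-binding protein of tendon sheath and synovial cells, was at 184 and 23.4 CPM, a log2 ratio of −2.97.

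*Antxr1*, a collagen receptor, was found in 68 of 91 untreated and 30 of 60 calcitriol barcodes, and its log2 ratio was −2.01 (−2.43 to −1.62). *Aqp1*, a water channel, was found in 67 and 25 barcodes, with a log2 ratio of −1.96 (−2.32 to −1.62). Both genes had UMIs in many untreated barcodes. After thinning, *Antxr1* was found in 32.2% and 12.1% of osteoblast barcodes and in 2.48% and 3.40% of endothelial barcodes. *Aqp1* was found in 28.7% and 8.62% of osteoblast barcodes, but in 66.8% and 71.1% of endothelial barcodes. The part of free RNA in its ratio was not tested. *Adam12* was at −1.88 and *Col15a1* at −1.81. *Car3*, a carbonic anhydrase, was at 315 and 39.2 CPM, a log2 ratio of −3.01, but 3 barcodes held 52.7% of its untreated UMIs and its ratio was −0.44 in cells with *Bglap* from 0.5% to under 2%. *Sfrp4* came to −0.42 after thinning.

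The cells were then split by their *Bglap* share, since the untreated cells had more barcodes at a high share. There were 27, 29 and 35 untreated and 28, 15 and 17 calcitriol barcodes with *Bglap* under 1%, from 1% to under 2%, and at 2% or more of UMIs. *Spp1* was higher in the calcitriol library at each share, with log2 ratios of 2.23, 1.72 and 2.63. *Enpp1* was at 1.88, 2.03 and 2.82, *Vdr* at 1.42, 1.98 and 2.35, and *Wif1* at 2.07, 1.03 and 5.04. *Col13a1* was lower at each share, at −1.91, −2.55 and −1.86, and *Tnn* at −2.37, −1.70 and −1.43. *Bglap2* was at −0.40, −0.72 and −1.02.

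Of 34 genes compared over the shares, 8 did not keep 1 direction: *Col1a1*, *Dmp1*, *Tnc*, *Ptprz1*, *Car3*, *Postn*, *Bglap3* and *Ibsp*. The 34 included *Bglap*, which set the shares, and *Ibsp* and *Runx2*, on which cells were selected, so the count is not free of the selection. *Fgf23*, at 0 in the untreated cells, was also among them, against a floor of 3 counts. With *Bglap* under 1%, its ratio was 0.21 with a lower limit of −0.66. *Car3* was at 2.93 (3 and 33 UMIs), at −2.80 against a floor of 3 counts since it had 0 UMIs in calcitriol cells, and at −3.65. *Ptprz1* was at 1.27, −0.51 and 1.60, and *Postn* at −1.74, −1.59 and 0.40. *Col1a1* was at 25356 and 44800 CPM under 1%, at 41781 and 9859 CPM from 1% to under 2%, and at 69089 and 37507 CPM at 2% or more. Its log2 ratios were 0.82, −2.08 and −0.88. *Dmp1* was at 3.01, −1.18 and 1.47. Of the calcitriol cells, the 15 barcodes of the middle share had the lowest *Col1a1* level, and of the untreated cells, the 29 of the middle share had the highest *Dmp1* level. The 15 calcitriol barcodes also held 4115 of the 5322 *Mgp* UMIs.

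**Figure D4:**
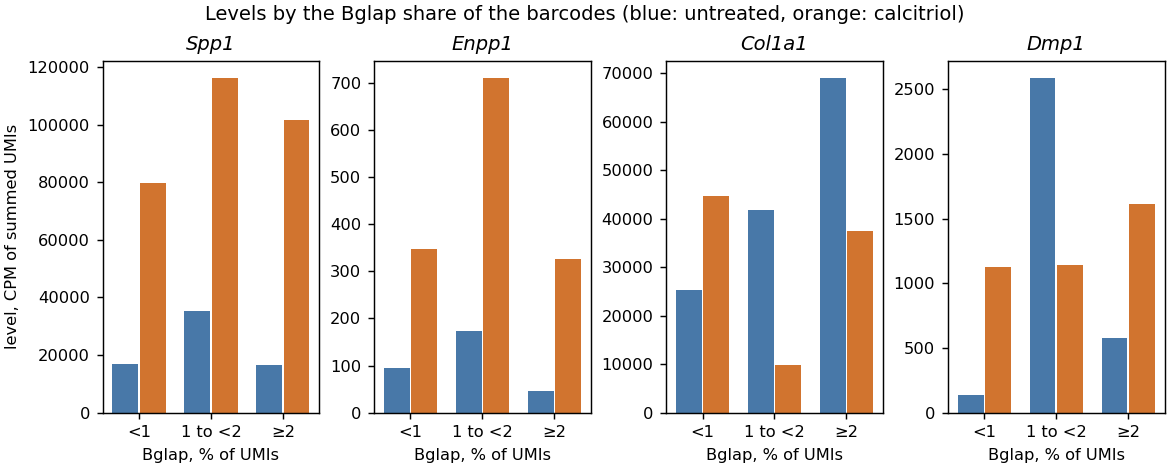
Levels of 4 genes in CPM of summed UMIs, by the *Bglap* share of the barcodes' UMIs, for untreated (27, 29 and 35 barcodes, blue) and calcitriol cells (28, 15 and 17 barcodes, orange). *Spp1* and *Enpp1* are higher in the calcitriol library at each share, and *Col1a1* and *Dmp1* are not in 1 direction.

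The ratios were set beside those of barcodes outside the selection: Postn-high barcodes (225 untreated and 130 calcitriol), osteocyte-gene barcodes with at least 2 of *Dmp1*, *Mepe* and *Phex* (29 and 90), and endothelial barcodes (228 and 275). Of the genes tested in the osteoblasts that had at least 50 UMIs there, 2.06% of 5430 were at least 2-fold higher and 3.37% lower in Postn-high barcodes, and 4.24% of 3631 were higher and 4.08% lower in osteocyte-gene barcodes. *Spp1* was past 2-fold in all of them, at 2.71, 2.02 and 3.77. *Ank* was at 0.52 in Postn-high, 1.92 in osteocyte-gene and 1.28 in endothelial barcodes. *Enpp1* was at 0.26, 0.73 and −0.42 there, against 2.13 in the osteoblasts. Its level in osteocyte-gene barcodes was 278 CPM untreated and 460 CPM with calcitriol, each above that in the same group of osteoblasts (93.2 and 408 CPM). *Vdr* was at 1.20, 0.48 and −0.94, against 1.82. Over all barcodes outside the selection with haemoglobin under 10% (2148 and 3398), *Spp1* was at 1.26, *Ank* at 0.78, *Enpp1* at 0.59 (0.53 to 0.65) and *Vdr* at 0.60. Erythroid barcodes are left out of these values since the untreated library held far more of them, and the cell types in the rest may differ in share as well. The interval of *Enpp1* was 1.88 to 2.38 in the osteoblasts and 0.40 to 1.07 in the osteocyte-gene barcodes. These intervals cover counting error only and not the spread between barcodes. In the calcitriol osteoblasts, 3 barcodes held 37.0% of the *Enpp1* UMIs. With 1 library per group, the difference between the populations was not tested.

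*Wif1* was at −0.38 in Postn-high, −0.27 in osteocyte-gene and −1.47 in endothelial barcodes. In untreated osteocyte-gene barcodes its level was 739 CPM, above that in either group of osteoblasts. *Tnfrsf11b* was at −0.74, −0.48 and −0.93, and at 1.26 in the osteoblasts. Its level in osteocyte-gene barcodes was 1539 CPM untreated and 1101 CPM with calcitriol, both above that in either group of osteoblasts (344 and 826 CPM). Over all barcodes outside the selection with haemoglobin under 10%, *Tnfrsf11b* was at 0.34 (0.31 to 0.38) and *Wif1* at 0.08. *Tspan2* and *Col13a1* were lower in Postn-high barcodes too, at −2.43 and −1.66. *Col13a1* was at −2.53 in osteocyte-gene barcodes. *Bglap2* was at −1.42, −3.09 and −0.98.

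**Figure D5:**
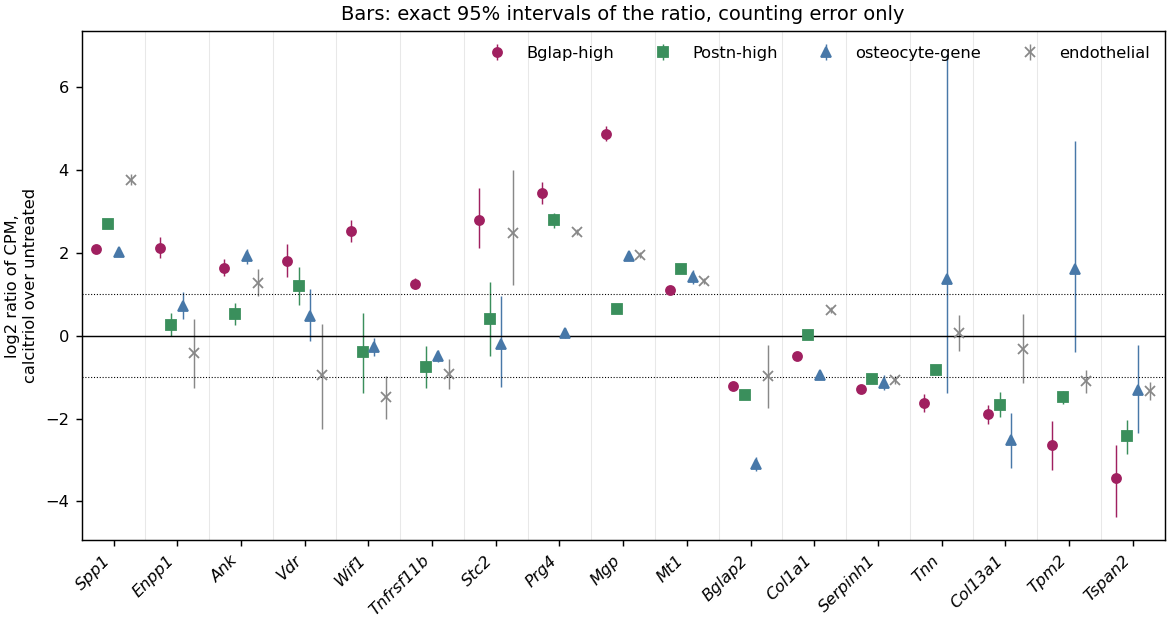
Log2 ratios of CPM, calcitriol over untreated, of 17 genes in Bglap-high osteoblasts and 3 other populations of barcodes, with exact 95% intervals as bars that cover counting error only. *Spp1* is past 2-fold in the 4 populations shown, while *Enpp1*, *Wif1* and *Tnfrsf11b* are past 2-fold higher in the Bglap-high osteoblasts and not in the other 3 shown.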

How the data were processed

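The authors deposited 1 matrix of UMI counts per library, made from reads with Cell Ranger 4.0.0 on mm10 and filtered to cells, and these counts carried no normalization. The study's own clustering used Seurat 3.2.2 and was not used here. The limits on genes, *Bglap*, *Ibsp*, *Runx2*, *Col2a1* and haemoglobin were applied to each barcode. UMIs were summed over the selected barcodes of a library and divided by their sum, in counts per 1000000 UMIs, and compared as log2 ratios with no pseudocount (Python 3.11.15, numpy 2.4.6, scipy 1.17.1, pandas 2.3.3, scikit-learn 1.9.0 and matplotlib 3.10.9). Genes with under 50 UMIs, or found in under 10% of the selected barcodes, and genes of the limits, haemoglobin and mitochondria were left out. A side at 0 was set to 3 counts, and 3 counts of the total were also the limit given for a share of 0. Exact 95% intervals were taken from the Poisson distribution for levels, from the binomial distribution given the sum of both counts for ratios, and by Clopper and Pearson for shares. The ratio step was tested on simulated data. With 1 library per group, no p-value was computed.

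The members, gene lists, markers and rules were chosen with earlier results of these data known. Named genes were the 12 highest and 12 lowest ratios among genes with at least 200 UMIs, the 10 most abundant, the 12 with the largest ratio to all other barcodes (pseudocount 10 CPM), and genes of the lists. Doublets were scored against simulated pairs of barcodes and were kept, and removing them was an alternative. Of symbols held by more than 1 of the 32285 gene rows, the row with more UMIs was used. Alternatives were other limits, thinning, equal weight per barcode, other totals and other filters on low counts, and 3 were added after the data were seen. Promoter windows came from a set of RefSeq windows on GRCm38.p6, and the set used held none for *Bglap2*, *Tnfrsf11b* and *Cyp24a1*.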

Additional observations from a re-analysis of the deposited data

Results flagged for a closer look

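Of the 65 genes of the rankings and lists that were past 2-fold in the Bglap-high osteoblasts, 51 had at least 50 UMIs in the osteocyte-gene barcodes (29 untreated and 90 calcitriol). Of these, 17 were past 2-fold there in the same direction and 8 in the opposite one, beside 4.24% of 3631 genes higher and 4.08% lower. For the 8, the log2 ratio there was −1.57 for *Gas1*, −1.05 for *Loxl4*, −1.21 for *Ptprz1* and −1.25 for *Egr2*. It was 2.68 for *Aqp1*, 2.32 for *Cthrc1*, 1.26 for *Mmp14* and 2.34 for *Cxcl1*. In Postn-high barcodes, 25 of 59 were past 2-fold in the same direction and 0 in the opposite one, beside 2.06% of 5430 genes higher and 3.37% lower. These differences were not tested, since each group was 1 library. The untreated osteocyte-gene barcodes held 6 UMIs of *Aqp1*.

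Barcodes left out of the selection for *Col2a1* at 1% or more of UMIs, but with *Bglap* at 0.5% or more, numbered 10 in the untreated and 4 in the calcitriol library. They had UMIs of *Spp1*, *Ibsp* and *Acan* in each barcode. Their *Spp1* level was 70449.5 CPM without and 32068 CPM with calcitriol, the opposite direction from the osteoblasts. This difference was not tested. Their *Ibsp* level was 37672 CPM without and 55736 CPM with calcitriol, above that of the osteoblasts in either library. *Col10a1*, a gene of hypertrophic chondrocytes, was found in 8 of the 10 untreated and 1 of the 4 calcitriol barcodes. The doublet score marked 0 of them.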

How the results depend on the processing

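No paired analysis was possible because each group was 1 library, and for the same reason no library could be left out. There were 18 alternatives for list medians, and at most 16 of them were counted for the log2 ratio of a named gene. Holding haemoglobin under 5% was 1 of the 16 and kept the same cells, so its ratios could not change. Centring on the median shifted every ratio by the same amount. Over the alternatives, 994 of 1372 log2 ratios of named genes and 330 of 377 list medians moved by less than counting error or spread. Another 368 ratios and 47 medians moved further, and 10 ratios of genes past 2-fold turned direction. The cause was not tested for any of these.

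The number of osteoblasts followed the limits. Untreated and calcitriol barcodes numbered 140 and 100 with *Bglap* at 0.25%, 64 and 32 at 1%, 67 and 40 with *Ibsp* and *Runx2* both required, and 56 and 43 with *Bglap* from 0.5% to under 2%. Untreated barcodes numbered 86 with at least 1000 genes and 72 without *Postn* at 0.3% or more. Genes at least 2-fold higher and lower numbered 19 and 59 of 664 after thinning, 47 and 77 with at least 200 UMIs, and 373 and 564 with at least 20 UMIs and no minimum share of barcodes, where other numbers of genes were tested. Lower genes numbered 501 with equal weight per barcode and 157 with ratios centred on the median.

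Ratios past 2-fold that turned were *Mia* (−0.56) and *Frzb* (−0.15) with *Col2a1* under 0.1%, *Loxl4* (−0.15) after thinning, and *Snorc* with *Bglap* at 1% (−0.15) and without *Prg4* and *Cytl1* at 0.1% (−0.53). *Col5a3* came to 0.25 with *Bglap* at 1%, and *Icam1* to −0.037 without barcodes with 2 of *Dmp1*, *Mepe* and *Phex* and to −0.74 after thinning. *Grem1*, at −3.20, came to 0.34 with *Ibsp* and *Runx2* both required and to 0.14 without *Prg4* and *Cytl1* at 0.1%. Of the 65 genes of the rankings and lists past 2-fold, 29 stayed past it in each alternative that gave a ratio and 36 did not in at least 1. Ratios within 2-fold turned as well, among them *Phex* (to −1.38), *Dmp1* (to −0.33), *Bglap3* (to 0.41) and *Col1a2* (to 0.10). Over 16 alternatives *Fgf23*, against the floor, ranged from 1.32 after thinning to 4.94, *Spp1* ranged from 1.75 to 2.35, *Enpp1* from 1.70 to 2.38, *Vdr* from 1.51 to 2.63, *Col13a1* from −2.26 to −1.72 and *Col1a1* from −1.13 to 0.07.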
